A study of Mus musculus with 3 samples.

Results

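The 10 core pluripotency transcription factors Pou5f1, Sox2, Nanog, Sall4, Esrrb, Zfp42, Nr5a2, Prdm14, Tfcp2l1 and Foxd3 were followed on the untreated, BMP4 and noggin arrays of mouse embryonic stem cells. They were taken by name, through every probe set that the platform annotation pairs with them, which gave 18 of the 45101 probe sets on the array. All 10 factors were among the 11594 genes, of 18193 named, with a value above the floor, the median of all values. The cells were of R1, an established mouse embryonic stem cell line, undifferentiated by the labels. The untreated cells received no factor, the BMP4 cells received BMP4 at 20 ng/ml for 4 h, and the noggin cells received the BMP antagonist noggin at 100 ng/ml for 4 h. The sources used here named no time for the untreated cells and no culture medium, LIF or feeder layer for any group. Each group was 1 array, so no replicate error exists, no test was made, and every difference below is the size of a gap between 2 arrays.

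These factors hold embryonic stem cells in a state from which all tissues of the embryo can form. POU5F1 (also called OCT4) and SOX2 bind DNA side by side, and with NANOG they occupy the regulatory regions of their own genes and of many other genes of the pluripotent state. SALL4 works with this group, ESRRB, NR5A2, TFCP2L1 and PRDM14 stabilise the naive form of the state, Zfp42 (Rex1) is a classical marker of undifferentiated cells, and FOXD3 is a forkhead factor needed to maintain the epiblast. BMP signalling is known in mouse embryonic stem cells for supporting self-renewal together with LIF, through SMAD proteins and the Id genes, which is the setting in which a comparison of added BMP4 with its antagonist bears on these factors.

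The promoters of 8 of the 10 factors could be matched by symbol to RefSeq windows (GRCm38.p6), and Sall4 and Prdm14 had no entry. The 250 bases before the start of 5 factors are shown, read in the direction of transcription. Nanog, Sox2 and Zfp42 are shown because they hold the core letters of the octamer, a POU-factor site, and Pou5f1 and Foxd3 because they had the largest differences above and below 0 with BMP4. Capitals mark matches to the motifs searched. Where a gene has several starts, the most upstream one is shown. The windows lie at chr6:122707239-122707488 on the plus strand for Nanog, chr3:34649745-34649994 on the plus strand for Sox2, chr8:43307010-43307259 on the minus strand for Zfp42, chr17:35505782-35506031 on the plus strand for Pou5f1 and chr4:99656049-99656298 on the plus strand for Foxd3.
Nanog: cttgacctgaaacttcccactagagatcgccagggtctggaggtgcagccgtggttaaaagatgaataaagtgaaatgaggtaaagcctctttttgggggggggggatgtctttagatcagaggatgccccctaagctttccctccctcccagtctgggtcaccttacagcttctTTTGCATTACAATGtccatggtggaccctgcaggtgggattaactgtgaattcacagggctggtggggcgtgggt
Sox2: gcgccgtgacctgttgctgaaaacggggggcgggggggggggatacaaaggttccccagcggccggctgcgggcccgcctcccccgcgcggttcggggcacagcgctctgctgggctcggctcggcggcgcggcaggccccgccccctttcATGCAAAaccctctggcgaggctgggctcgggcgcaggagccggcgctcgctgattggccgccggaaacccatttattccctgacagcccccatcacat
Zfp42: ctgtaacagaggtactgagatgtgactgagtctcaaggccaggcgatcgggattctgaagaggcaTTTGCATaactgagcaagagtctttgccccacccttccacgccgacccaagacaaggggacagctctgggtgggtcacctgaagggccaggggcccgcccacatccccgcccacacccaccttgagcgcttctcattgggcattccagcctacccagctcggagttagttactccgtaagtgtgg
Pou5f1: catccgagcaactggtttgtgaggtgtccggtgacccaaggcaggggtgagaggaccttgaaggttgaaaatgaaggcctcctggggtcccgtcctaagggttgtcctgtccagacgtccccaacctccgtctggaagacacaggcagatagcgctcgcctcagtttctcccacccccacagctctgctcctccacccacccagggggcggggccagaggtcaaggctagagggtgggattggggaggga
Foxd3: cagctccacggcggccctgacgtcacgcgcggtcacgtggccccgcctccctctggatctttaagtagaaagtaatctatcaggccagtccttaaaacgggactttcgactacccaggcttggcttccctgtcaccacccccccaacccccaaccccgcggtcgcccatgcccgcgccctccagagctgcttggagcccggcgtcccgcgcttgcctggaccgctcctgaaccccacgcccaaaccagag

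The 6 motifs were searched on both strands in 32851 promoter windows of 250 bases. The octamer core ATGCAAA on one strand, followed after 1 free base by the SOX letters ACAATG on the other, was present as a pair in 0.00609% of windows, and these were the 2 windows of Nanog, where it ran from base -75 to base -62 before the upstream start. The pair was chosen with the Nanog element known, so this match is no independent result. The octamer core by itself, the paired copies included, was present in 4.12% of all windows and in those of Nanog, Sox2 and Zfp42, from base -99 to base -93 in Sox2 and from base -185 to base -179 in Zfp42. The SOX letters ACAATG stood in 10.7% of all windows, and in those of Nanog and of the later start of Pou5f1. The letters AAGGTCA, bound by ESRRB and NR5A2, stood in 4.08% of all windows and the SMAD box GTCTAGAC in 0.167%, and neither stood in a window of these factors. The GC-rich BMP element GGCGCC stood in 9.59% of all windows and in that of Tfcp2l1 among the factors. These are matches of letters in a short window and say nothing of binding.

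The untreated, BMP4 and noggin arrays had median log2 values of 3.45, 3.45 and 3.43. Their 5th percentiles were 1.82, 1.82 and 1.60, so the noggin array was lower at the low end. All 11 BMP response genes were higher with BMP4, with a median difference of 0.99, where 24.8% of all genes were higher. The list was chosen with earlier results of these data known, so that count is no independent check of the treatment. With noggin, 7 of the 11 were lower, 2 higher and 2 equal, with a median of -0.02, where 36.1% of all genes were lower. Id1 measured 8.78 untreated, 11.54 with BMP4 and 8.59 with noggin. The label of undifferentiated stem cells was checked with 10 stem cell markers outside the factors (among them Dppa5a, Utf1, Fgf4 and Tdgf1), and 10 of 10 lay above the floor on every array. Markers of other fates were also in part above the floor on at least 1 array: 5 of 6 for primitive endoderm (Gata4 was not), 3 of 6 for trophoblast (Cdx2, Krt7 and Elf5 were not), 4 of the 5 measured for mesoderm and primitive streak (Tbx6 was not), 4 of 6 for neuroectoderm (Sox1 and Zic1 were not) and 7 of 10 for feeder fibroblasts (Col1a1, Col3a1 and Lum were not). Of all named genes, 11594 of 18193 were above the floor on at least 1 array. The highest of these markers of other fates on the untreated array were Tfap2c at 7.10, Eomes at 5.92 and Nes at 5.73, and the next was S100a4 at 4.93. The poly-A spikes, control transcripts put into each RNA ahead of labelling, were lower on the BMP4 than on the untreated array in 24 of 24 probe sets, with a median difference of -0.63. They were also lower with BMP4 than with noggin in 24 of 24 (median -0.46), and with noggin than on the untreated array in 23 of 24 (median -0.18). The part of these gaps in the differences below was not tested. Probe sets of the same gene differed among themselves with an SD, pooled over 5139 genes, of 0.13 in the comparison of BMP4 and 0.11 in that of noggin with untreated cells, and of 0.16 between the treated arrays. In bulk RNA, fewer cells that express a gene cannot be told apart from less RNA per cell.

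Of the core trio, Pou5f1 and Nanog were slightly higher with BMP4 than on the untreated array, and Sox2 was equal there; with noggin, Nanog and Sox2 were slightly lower and Pou5f1 equal. Pou5f1, the POU homeodomain factor, measured 11.31 untreated, 11.53 with BMP4 and 11.31 with noggin (log2 RMA values, on which 1 is a 2-fold difference). The BMP4 array stood apart, 1.16-fold above the other two, which held the same value. Among the 11594 genes, 2.30% were at least as far above 0 in that comparison. Nanog, the homeodomain factor whose level marks the naive state, measured 11.00 untreated, 11.15 with BMP4 and 10.95 with noggin. Nanog was thus highest with BMP4 and lowest with noggin, by 0.14 above and 0.06 below the untreated array, and 4.98% of genes were at least as far above 0 with BMP4. The Nanog gap with noggin was within the SD of 0.11 among probe sets of a gene, and that with BMP4 was little above the SD of 0.13. That SD is a spread among probe sets on the same arrays and no measure of error between arrays. Sox2, the HMG-box partner of POU5F1, measured 11.16 untreated, 11.16 with BMP4 and 11.12 with noggin. Its gap of 0.04 between noggin and the others was within the spread of probe sets of a gene. Each of the trio has 1 probe set, so no second probe set can be set beside these values. Processed pseudogenes of Pou5f1 and Nanog exist in the mouse genome, and how far their transcripts add to these values was not tested.

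**Figure D1:**
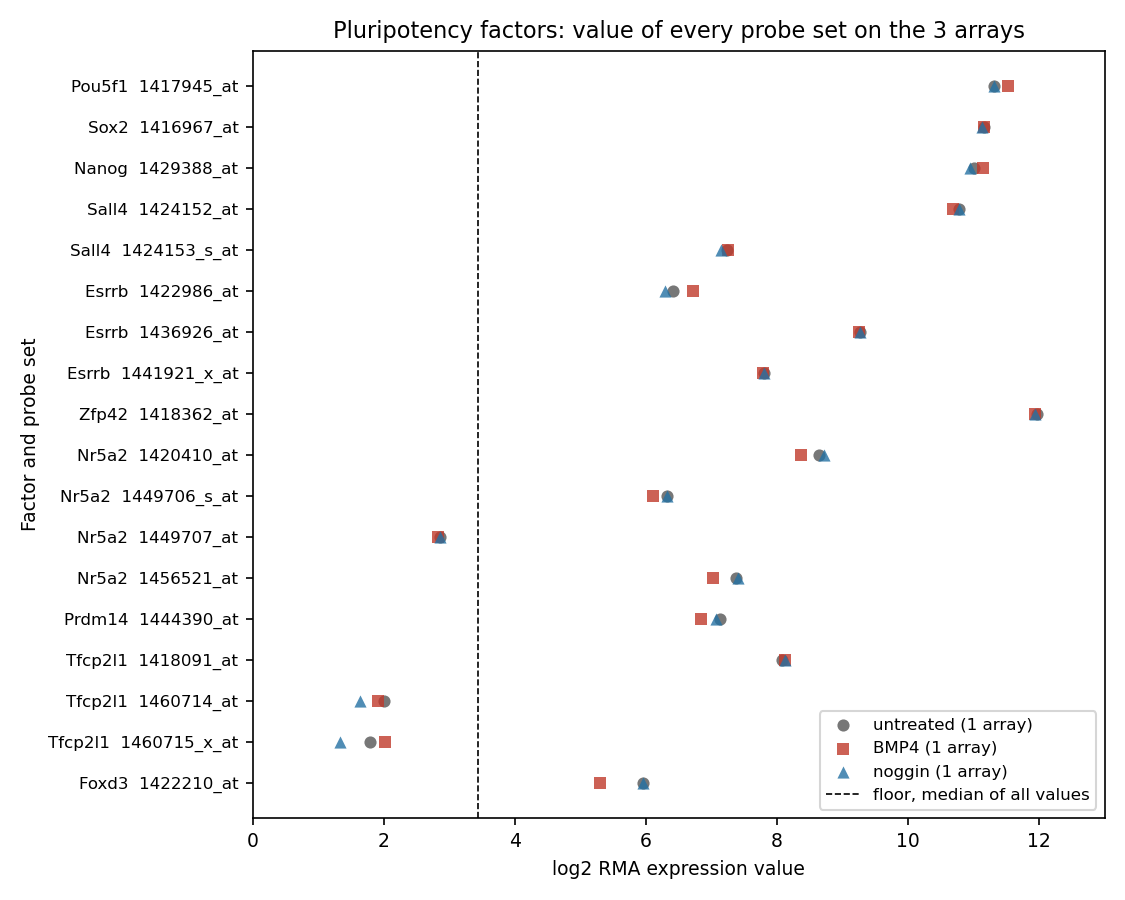
Log2 RMA expression values (x axis) of the 18 probe sets of the 10 factors (y axis), with 1 point per array: circles untreated, squares BMP4, triangles noggin. The dashed line is the floor of 3.44; 15 probe sets lie above it and 3, of Nr5a2 and Tfcp2l1, below it on all arrays, and the BMP4 square of Foxd3, at 5.29, stands clear of the other two points at 5.96.

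Foxd3 stood furthest from its untreated value. It measured 5.96 untreated, 5.29 with BMP4 and 5.96 with noggin. The BMP4 array was low by 0.66 against each of the others, which held the same value, so that Foxd3 was 1.58-fold lower with BMP4. Foxd3 was 1 of 6 genes at least 1.5-fold lower with BMP4, which is 0.0518% of the genes, and none of the other 9 factors was. Genes at least 1.5-fold higher made up 0.224%, and no factor was among them. Foxd3 has 1 probe set, so its difference rests on that probe set on 1 array. Between these arrays, 4 of the 7 fibroblast markers above the floor were lower with BMP4 and 1 was higher (of all genes, 35.6% were lower and 24.8% higher). Postn, among the 4, passed the floor on the noggin array alone (3.32 untreated, 3.00 with BMP4, 3.55 with noggin). The summed linear value of the 10 fibroblast markers was 172.2 untreated, 151.5 with BMP4 and 171.9 with noggin. That sum takes in Col1a1, Col3a1 and Lum, which lay below the floor on all arrays. Primitive endoderm markers summed to 96.2, 121.5 and 98.4 on the same arrays. At their brightest probe sets, Sox7 was higher with BMP4 by 0.99, Gata6 by 0.52 and Sox17 by 0.08. Pdgfra, Dab2 and Gata4 were equal on the BMP4 and untreated arrays, Gata4 below the floor. Trophoblast markers summed to 239.0, 303.1 and 223.8. Eomes was higher with BMP4 by 0.46 at its brightest probe set, which enters the sum, and by 0.11 at its other one. Tfap2c was higher by 0.38, with 0.35 and 0.46 at its other probe sets, and Hand1 by 0.03. Cdx2, Elf5 and Krt7 lay below the floor on all arrays. Neuroectoderm markers summed to 107.7, 104.9 and 110.6, and of the 4 above the floor 3 were lower with BMP4 and 1 was higher. Mesoderm and primitive streak markers summed to 53.2, 54.4 and 53.3, and of the 4 above the floor 1 was higher, 1 lower and 2 equal. The part of other cell types in the Foxd3 difference was not tested.

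Nr5a2 and Prdm14, a pair of naive-state factors, were next below the untreated array. Prdm14, a PR-domain zinc finger protein that represses FGF receptor signalling and de novo DNA methyltransferases, measured 7.12 untreated, 6.84 with BMP4 and 7.07 with noggin. It was lowest with BMP4, by 0.28, and 1.90% of genes were at least as far below 0. Nr5a2, an orphan nuclear receptor that binds regulatory regions of Pou5f1, measured 8.64 untreated, 8.37 with BMP4 and 8.72 with noggin at its brightest probe set. It was lowest with BMP4, by 0.27, and highest with noggin, by 0.08. Its other 2 probe sets above the floor also had their lowest value with BMP4: the first measured 7.38 untreated, 7.02 with BMP4 and 7.40 with noggin, and the second 6.32, 6.11 and 6.32. The fourth, at 2.85, 2.82 and 2.85, lay below the floor throughout. At a limit of 1.2-fold, 3 of the 10 factors were lower with BMP4, Foxd3, Prdm14 and Nr5a2, against 2.25% of all genes, and 0 were higher, against 1.59%. Nr5a2 lay just past that limit, a log2 difference of 0.26, and with all its probe sets averaged its difference was -0.22, short of it. Pou5f1 was the nearest factor that did not pass.

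The remaining factors lay within 0.1 of the untreated array at their brightest probe sets. Sall4, a spalt-like zinc finger protein, measured 10.78 untreated, 10.69 with BMP4 and 10.78 with noggin, and its second probe set 7.23, 7.25 and 7.15. The first was lowest with BMP4 and the second lowest with noggin, so the probe sets did not order the arrays alike. Zfp42, the Rex1 zinc finger gene, measured 11.97 untreated and 11.94 on both treated arrays. Tfcp2l1, a CP2-family factor downstream of LIF and STAT3, measured 8.07 untreated and 8.12 on both treated arrays. The other 2 probe sets of Tfcp2l1 were below the floor on every array, with values from 1.32 to 2.01, and differences there are read against background.

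Esrrb, an orphan nuclear receptor that can stand in for NANOG in self-renewal, had probe sets that disagreed. The brightest measured 9.26 untreated, 9.25 with BMP4 and 9.27 with noggin, and another measured 7.80, 7.79 and 7.80. The third measured 6.40 untreated, 6.71 with BMP4 and 6.29 with noggin. That probe set was 0.31 higher with BMP4 and 0.11 lower with noggin, while the brightest differed by 0.01 in the opposite directions. Which transcripts of Esrrb each probe set covers was not analysed here.

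**Figure D2:**
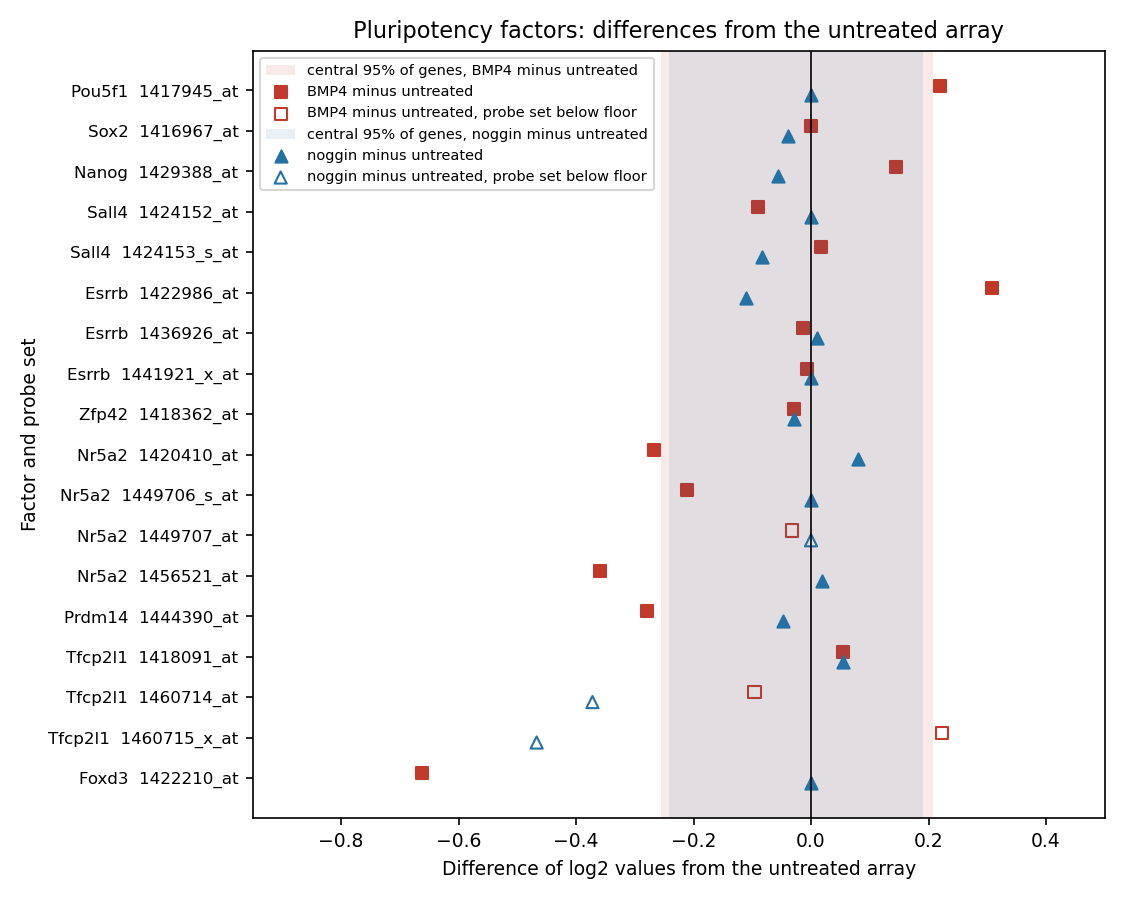
Difference of log2 values from the untreated array (x axis) for the 18 probe sets (y axis), squares for BMP4 and triangles for noggin, with open symbols for the 3 probe sets below the floor on all arrays. The shaded bands hold the central 95% of the 11594 genes, from -0.25 to 0.21 for BMP4 and from -0.24 to 0.19 for noggin. With BMP4, Foxd3 at -0.66, the Nr5a2 probe sets at -0.36 and -0.27 and Prdm14 at -0.28 lie below the band. Esrrb at 0.31, Pou5f1 at 0.22 and a Tfcp2l1 probe set below the floor, also at 0.22, lie above it. Every triangle of a probe set above the floor lies inside the band for noggin.

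With noggin, the factors measured nearly as in untreated cells. Pou5f1, Sall4 and Foxd3 had the same value on both arrays to 6 decimals, 4 factors were lower and 3 higher, and the differences ran from -0.06 for Nanog to 0.08 for Nr5a2. All 10 factors lay within 0.1 of the untreated array, as did 79.5% of all genes. At a limit of 1.2-fold, 0 of 10 were lower and 0 were higher, against 1.90% and 0.897% of all genes, and at 1.5-fold 0 were lower and 0 higher, against 0.069% and 0.00863%. The median difference of the factors was 0.00, and that of all genes 0.00. With BMP4, 5 of the 10 lay within 0.1, against 78.8% of all genes; 6 were lower, 3 higher and 1, Sox2, equal, with a median of -0.02 against 0.00 over all genes. Exact ties are common in these values: 39.6% of genes had equal values on the BMP4 and untreated arrays and 37.0% on the noggin and untreated arrays. Both comparisons use the same untreated array, so their values are set side by side and not correlated.

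The BMP4 array was also compared directly with the noggin array, which sets added BMP4 against its antagonist. Pou5f1 was 0.22 higher with BMP4 than with noggin and Nanog 0.20 higher, whereas Foxd3 was 0.66 lower, Nr5a2 0.35 lower and Prdm14 0.23 lower. Foxd3 and Nr5a2 were the factors at least 1.2-fold lower, 2 of 10 against 3.26% of all genes, and 0 of 10 were higher by that limit, against 3.37%. At 1.5-fold, Foxd3 alone of the 10 was lower, against 0.138% of all genes, and none was higher, against 0.380%. Zfp42 and Tfcp2l1 were equal on these arrays, and Sox2, Esrrb and Sall4 differed by 0.04, -0.02 and -0.09.

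**Figure D3:**
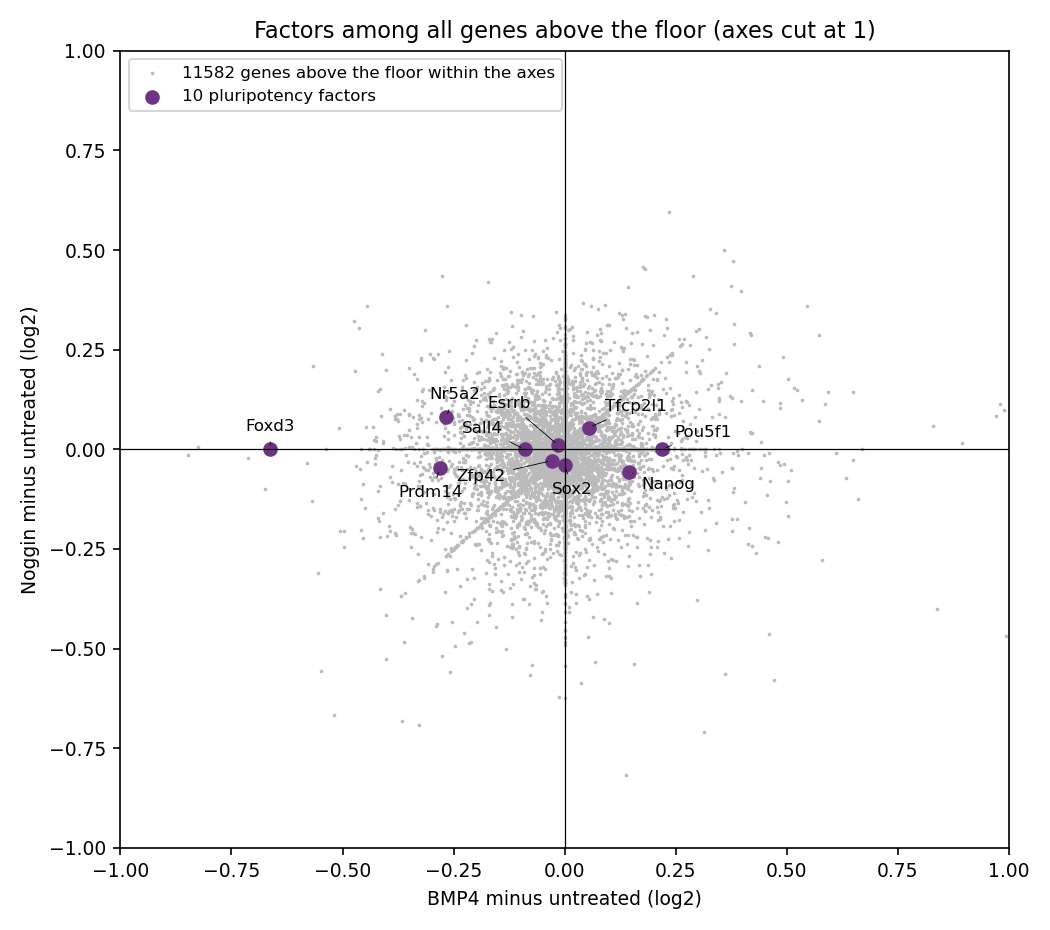
Each point is 1 gene above the floor, with BMP4 minus untreated (x axis, log2) against noggin minus untreated (y axis, log2); the 10 factors are purple and named. The axes are cut at 1 and hold 11582 of the 11594 genes, and both differences share the untreated array; Foxd3 lies far to the left at -0.66 and 0.00, with Prdm14 and Nr5a2 next, Pou5f1 and Nanog to the right, and the rest near the centre.

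The range of a factor over the 3 arrays was below 0.25 for 7 of the 10, and for 90.2% of all genes. The median range was 0.15 for the factors and 0.06 for all genes. The patterns of Foxd3 and Pou5f1 were set against the genes above the floor, leaving out clone and model names, by the distance over the 2 differences from the untreated array. The genes nearest to Foxd3 were Taf7l at a distance of 0.06, Anxa1 at 0.10, Ccdc141 at 0.13, and Pdgfc and Ackr3 at 0.16 each. Taf7l measured 6.12 untreated, 5.41 with BMP4 and 6.10 with noggin. Among the genes so compared, none was within 0.05 of Foxd3, whereas 75 were within 0.05 of Pou5f1, the nearest being Tmem216, H2-DMb2, Bcam, Pgap4 and Cd79a. The likeness rests on 3 arrays and says little for a pattern as common as that of Pou5f1.

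Beyond the factors, 36 of 38 listed partners and targets of the pluripotency network were measured, all above the floor, and none reached 1.5-fold in any comparison. With BMP4, 15 were higher, 15 lower and 6 equal, with a median of 0.00, where of all genes 24.8% were higher, 35.6% lower and 39.6% equal. At least 1.2-fold, 2 were higher and 0 lower, against 1.59% and 2.25% of all genes. Nacc1, a BTB-domain partner of the network, was higher by 0.29 (7.73 untreated, 8.02 with BMP4), and its other probe sets by 0.08 and 0.46. Tet1, a 5-methylcytosine dioxygenase, was higher by 0.28, with 0.25 and -0.02 at its other probe sets above the floor. Fgf4, a growth factor gene driven by POU5F1 and SOX2, was higher by 0.19, and its other probe sets above the floor by 0.15 and 0.40. The proto-oncogene Mycn was lower by 0.22 at its brightest probe set and equal at the other 2, and Etv5, an ETS factor downstream of FGF, and Nr0b1 (Dax1) were each lower by 0.17, with -0.05 and 0.06 at the other probe sets of Etv5.

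With noggin, 20 of the 36 were higher, 13 lower and 3 equal, with a median of 0.02, where of all genes 26.8% were higher, 36.1% lower and 37.0% equal. At least 1.2-fold, 2 were higher and 1 lower, against 0.897% and 1.90% of all genes. Lin28a, an RNA-binding protein that blocks let-7 maturation, had the largest difference. It measured 8.61 untreated, 8.53 with BMP4 and 8.04 with noggin, a difference of -0.57, but its second probe set measured 8.24, 8.33 and 8.32, so the low noggin value appeared in 1 of its 2 probe sets. Dnmt3l and Nr0b1 followed at -0.13 and -0.11. Nacc1 was higher by 0.43, Mga by 0.28 and Trim28 by 0.19; the other probe sets of Nacc1 were higher by 0.08 and 0.38, and the other 2 of Mga above the floor were equal on these arrays.

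**Figure D4:**
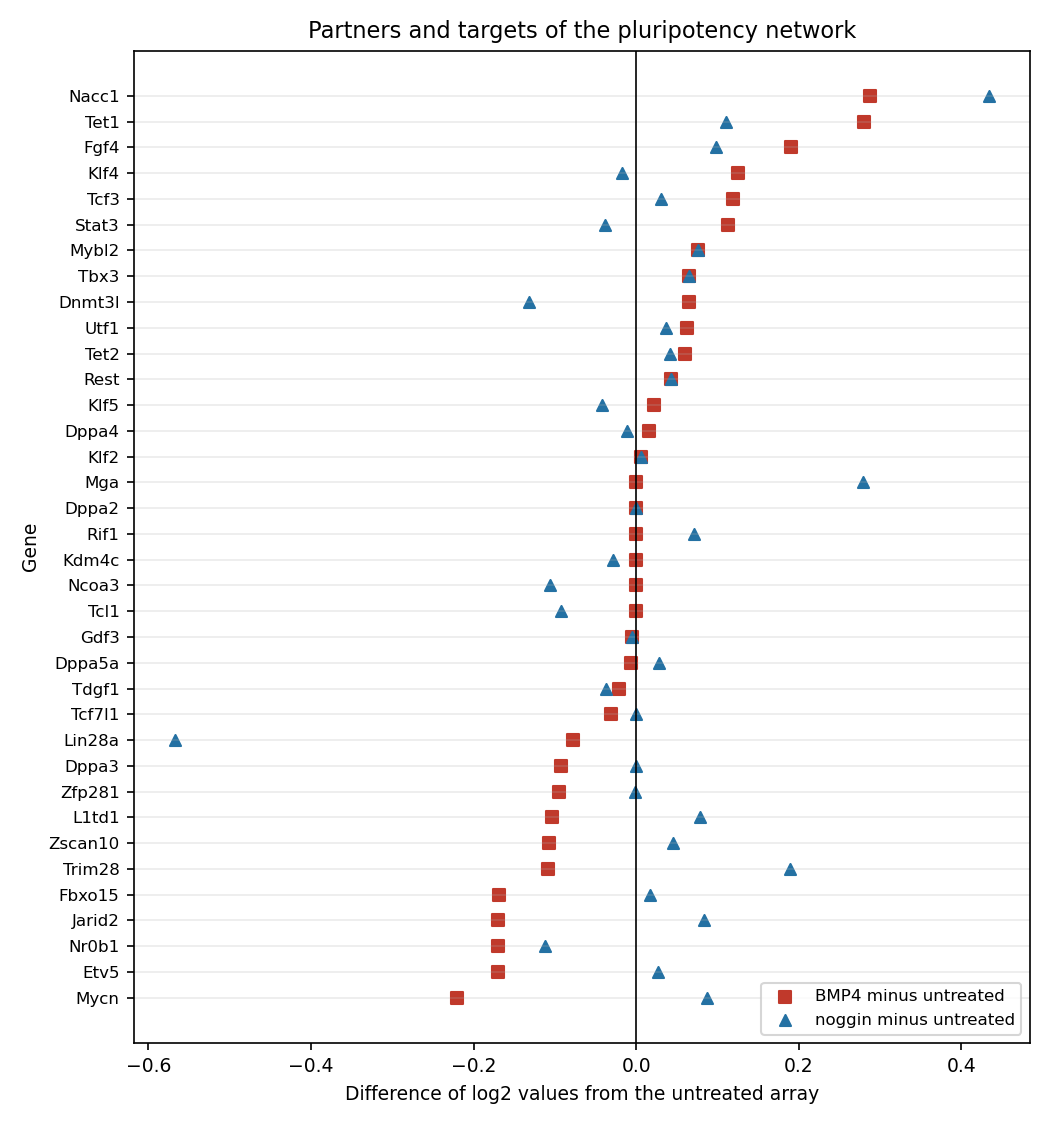
Difference of log2 values from the untreated array (x axis) for the 36 measured partners and targets of the network (y axis, ordered by the BMP4 difference), squares for BMP4 and triangles for noggin, 1 array each. The BMP4 squares run from Mycn at -0.22 to Nacc1 at 0.29, and the triangle furthest from 0 is Lin28a at -0.57.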

How the data were processed

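Total RNA of R1 cells was hybridised to Affymetrix arrays, 1 array for each of 3 groups. The authors deposited log2 expression values per probe set, made with RMA per the submitters' processing notes; version, settings and build are not given in the sources used here. RMA equalises the distributions of the arrays and summarises probes by median polish, which would hide a general shift in RNA and gives many exact ties: 26.1% of probe sets were equal on all 3 arrays within 1e-06. The summarised values still differed at the low end, with a 5th percentile of 1.60 on the noggin array and 1.82 on the other arrays.

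Probe sets were named by the platform annotation: 34945 had 1 gene symbol, 932 several, 9160 none, and 64 were controls. The Entrez identifiers of all 10 factors matched RefSeq under the same symbol. A gene was represented by its brightest probe set among those with that symbol alone, and kept if any array exceeded 3.44, the median over all probe sets and arrays (the floor). Differences of log2 values were counted at limits of 1.5-fold and 1.2-fold. Without replicates there was no test, and array number limits the precision. The arithmetic was tested on simulated data. The 10 factors and the gene lists were chosen with earlier results of these data known. The text names all factors and, for a list it describes, up to 3 genes with the largest difference in each direction, besides Id1 and, for Foxd3 and Pou5f1, the 5 genes nearest in pattern, leaving out clone names. Marker genes of other fates were named after their values were seen. Alternatives were no floor, a floor at the 75th percentile, the mean over probe sets, plain-suffix probe sets alone, and median-centred or loess-corrected (span 0.3) differences, with Python 3.11.15, pandas 2.3.3 and statsmodels 0.14.6.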

Additional observations from a re-analysis of the deposited data

How the results depend on the processing

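No paired analysis was possible because each group has 1 array, and for the same reason no replicate could be left out. No factor past 1.2-fold changed sign under the 6 alternatives. With a floor at the 75th percentile Foxd3 was not kept; under the other 5 alternatives its BMP4 difference was -0.66 each time. Prdm14 was at -0.28 under all 6, and Nr5a2 ran from -0.27 to -0.22, past 1.2-fold except with probe sets averaged (-0.22) or loess correction (-0.26). The factors' median for BMP4 minus noggin, -0.01, was 0.02 with probe sets averaged, where Tfcp2l1 was 1.2-fold higher at 0.32 because probe sets below the floor entered the mean (noggin minus untreated -0.26). That made 1 factor higher in place of 0, and 1 lower in place of 2; with the higher floor 1 was lower. The genes kept numbered 11594 in the main setting, 18193 with no floor, 6903 with the higher floor and 10708 with probe sets averaged. The counts below are out of these numbers, so a count can move with the number of genes alone. Counts over all genes at 1.5-fold moved by over 1.5 times as follows. With no floor, genes 1.5-fold lower with noggin went from 8 to 64, and higher for BMP4 minus noggin from 44 to 102. With the higher floor, 3 in place of 6 were lower with BMP4, 0 in place of 1 higher and 1 in place of 8 lower with noggin, and 20 in place of 44 higher and 6 in place of 16 lower for BMP4 minus noggin. With probe sets averaged, 17 in place of 26 were higher with BMP4, 4 in place of 8 lower with noggin, and 10 in place of 16 lower for BMP4 minus noggin. The 1.2-fold counts over all genes, the background of the factors' counts, moved as well, out of the same numbers of genes. With no floor, genes higher with BMP4 went from 184 to 288, lower with noggin from 220 to 1291, and higher for BMP4 minus noggin from 391 to 1443. With the higher floor the counts were 100 higher and 130 lower (in place of 261) with BMP4, 34 (in place of 104) and 55 with noggin, and 191 and 228 (in place of 378) for BMP4 minus noggin. With probe sets averaged, 121 were lower with BMP4, 45 higher with noggin and 157 lower for BMP4 minus noggin. Both the floor and the averaging change which genes are tested, and values below the floor, where signal cannot be told from background, limit what can be read there.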

Other observations

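Genes that mark the exit from the naive state showed no common direction. Of 16 primed epiblast and formative genes, 12 were above the floor; with BMP4, 4 were higher, 5 lower and 3 equal, where of all genes 24.8% were higher, 35.6% lower and 39.6% equal. The 1 gene at least 1.2-fold higher, against 1.59% of all genes, was Zic2, a zinc finger factor of the formative epiblast, at 4.96 untreated, 5.46 with BMP4 and 4.79 with noggin. Cldn6, a claudin, was higher by 0.18 on both treated arrays, and Nodal and Dnmt3a were lower by 0.20 and 0.17 with BMP4; the other probe set of Nodal was equal, and the other 4 of Dnmt3a ran from -0.02 to 0.14. Fgf5, the classical marker of primed cells, lay below the floor on all arrays, at 2.94, 2.94 and 2.85. With noggin, 6 were lower, 3 higher and 3 equal, where of all genes 36.1% were lower, 26.8% higher and 37.0% equal. The 2 at least 1.2-fold lower, against 1.90% of all genes, were Fgf15 and the POU-family gene Pou3f1, each by 0.36. Both had low values, not far above the floor of 3.44: Fgf15 4.27 untreated and 3.91 with noggin, Pou3f1 4.80 and 4.45. The second probe set of Pou3f1 was lower by 0.35 with noggin and by 0.32 with BMP4. Between BMP4 and noggin, 3 of the 12 passed 1.2-fold upwards and 0 downwards, against 3.37% and 3.26% of all genes.

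Of 33 paralogs of the factors, 23 were above the floor, and with BMP4 3 were higher, 10 lower and 10 equal, with a median of 0.00, beside the same shares of 24.8%, 35.6% and 39.6% over all genes. Prdm2 was lower by 0.28, with -0.08 and 0.16 at its other probe sets above the floor, Sall1 by 0.18, with 0.04 at its other probe set, and Sox4 by 0.17, with other probe sets above the floor from -0.10 to 0.39. The 3 higher with BMP4 were Pou4f1 by 0.09 (3.84 untreated, 3.93 with BMP4), Ubp1 by 0.04, with 0.09 at its other probe set, and Prdm4 by 0.01. Paralogs closest to Foxd3 (Foxd1, Foxd2 and Foxd4) lay below the floor on all arrays, and no value of theirs can be set beside its lower value with BMP4.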
